A study of Homo sapiens with 24 samples.

Results

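Insulin and insulin-like growth factors act through a chain of proteins that ends at the FOXO transcription factors, and 10 genes of that chain were followed in newly made RNA of human osteosarcoma cells during 3 h of dexamethasone, a synthetic glucocorticoid. The genes were INSR, IGF1R, IRS1, IRS2, PIK3R1, PIK3R3, PIK3IP1, FOXO1, FOXO3 and FOXO4. They were chosen by name with earlier results of these data known, and their rows were taken from a table of exon read counts with 61533 genes. FOXO1 rose most, to 4.56-fold of its ethanol level at 3 h as the mean of the 3 cell lines (log2 fold change 2.19, SE 0.17). As that mean PIK3R1 and FOXO3 also rose, PIK3R3 and INSR fell, and IRS2 was at most 1 read in any library. The FOXO3 rise was small (log2 fold change 0.22), depended on single libraries and was not seen in 1 of the 3 lines. The INSR fall at 3 h also depended on single libraries and reached an adjusted p under 0.05 in no single line. At 3 h PIK3R3 reached that threshold in only 1 of the 3 lines, and PIK3R1 missed it in 1 of the 3.

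The cells were U2OS, a human osteosarcoma line, with a stable transgene for the glucocorticoid receptor (GR), the product of NR3C1, joined to HaloTag, a protein label. There were 3 lines. The first carried wild-type GR (wt GR cells), the second carried the K492A mutant with reduced RNA binding (SoF GR cells), and the third carried the R470A mutant (Ctrl GR cells), made to match the weaker DNA binding of the SoF mutant. The study asked whether the response to dexamethasone changes when GR binds RNA less. Dexamethasone was given at 100 nM for 1, 2 or 3 h, the control was 0.01% ethanol, which is called 0 h here, and 200 µM 4-thiouridine was present for the last 1 h. Growing transcripts take up this nucleoside, and RNA that carried it was purified and sequenced (4sU-seq), so the values describe RNA made mostly in that hour and not the total pool. With 2 libraries for every line and time, there were 12 groups and 24 libraries.

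Some features of the model limit what the groups can show. The GR constructs were driven by a CMV promoter and integrated with a PiggyBac transposon, each line was 1 sorted pool of cells, and the parental cells kept their own NR3C1 gene. The construct and the cell pool therefore cannot be told apart. By immunofluorescence, the study picked the pools so that nuclear GR protein was similar between lines after dexamethasone. How long the ethanol dishes were kept in ethanol is not stated in the sources used here. It is also not stated that the 2 libraries of a group came from separate cultures, so all p-values measure only the spread between these samples. The study's methods say that replicates were biotinylated and pulled down as pairs. If the 2 libraries of a group formed such a pair, the pulldown and the group cannot be told apart.

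The libraries held 8106036 to 15820806 counts. Values below are CPM, counts scaled to a common library total with TMM factors, unless RPKM (CPM per kb of exon) is named. On the first principal component of the 24 libraries (39.6% of the variance), replicate 1 at 0 h lay nearer to the 3 h libraries than replicate 2 did in every line, by 36.7% of the distance from 0 h to 3 h in wt, 65.9% in SoF and 70.9% in Ctrl GR cells. Each result is therefore also given without single libraries where that changed it. NR3C1 had 334 to 1595 CPM in wt, 1118 to 6273 CPM in SoF and 1627 to 7658 CPM in Ctrl GR cells, with reads of the cells' own gene and of the introduced copy counted together. All 3 known dexamethasone-induced genes examined, FKBP5, TSC22D3 and PER1, were higher at 3 h over the 3 lines. In the single lines at 3 h, all 3 were higher at an adjusted p under 0.05 in edgeR in wt and SoF GR cells. In Ctrl GR cells only 2 of the 3 were. The mean of TSC22D3 in Ctrl GR cells was 21.76 CPM at 0 h, 36.79 CPM at 1 h and 23.31 CPM at 3 h. Of 10 markers of osteosarcoma and mesenchymal cells, 6 exceeded 1 CPM in all libraries, and COL1A2, SP7, BGLAP and TWIST1 did not. Of 9 markers of other cell types, EPCAM and KRT18 did, and the summed level of these 9 was 173 to 406 CPM.

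In this pathway the insulin receptor (INSR) and the insulin-like growth factor 1 receptor (IGF1R) are tyrosine kinases at the cell surface that phosphorylate the docking proteins IRS1 and IRS2. Docked IRS proteins recruit phosphoinositide 3-kinase (PI3K) through its regulatory subunits, of which PIK3R1 and PIK3R3 encode members, while the membrane protein PIK3IP1 restrains the kinase. PI3K activates the kinase AKT, and AKT phosphorylates FOXO1, FOXO3 and FOXO4 so that they leave the nucleus. Glucocorticoids are well known to oppose insulin action in muscle, fat and liver.

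The DNA before the starts of 5 of these genes is shown first, because FOXO1 and PIK3R1 rose, PIK3R3 fell, IRS2 gave almost no reads, and PIK3IP1 held the single motif match among the 10. Each line gives the 250 bases before the RefSeq start nearest to the annotated gene start, 5′ to 3′ on the gene's strand, from RefSeq on GRCh38.p14. Capitals mark the 6-base GR motif AGAACA or its reverse complement TGTTCT.
FOXO1, chr13:40666642-40666891, minus strand: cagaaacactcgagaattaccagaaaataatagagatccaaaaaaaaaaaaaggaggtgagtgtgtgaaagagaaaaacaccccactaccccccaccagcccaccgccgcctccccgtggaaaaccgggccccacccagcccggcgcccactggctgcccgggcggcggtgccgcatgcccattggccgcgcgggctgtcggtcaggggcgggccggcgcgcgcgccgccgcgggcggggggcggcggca
PIK3R1, chr5:68215506-68215755, plus strand: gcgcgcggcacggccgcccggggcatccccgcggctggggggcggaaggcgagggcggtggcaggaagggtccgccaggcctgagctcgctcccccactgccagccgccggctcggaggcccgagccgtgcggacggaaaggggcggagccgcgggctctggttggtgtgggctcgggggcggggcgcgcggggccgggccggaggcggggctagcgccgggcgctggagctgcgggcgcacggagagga
PIK3R3, chr1:46133037-46133286, minus strand: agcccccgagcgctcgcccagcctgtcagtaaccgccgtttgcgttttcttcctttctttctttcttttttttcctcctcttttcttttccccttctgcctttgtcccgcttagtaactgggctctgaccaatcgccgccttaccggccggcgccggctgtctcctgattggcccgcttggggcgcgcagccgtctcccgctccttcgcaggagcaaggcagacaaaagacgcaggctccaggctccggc
PIK3IP1, chr22:31292535-31292784, minus strand: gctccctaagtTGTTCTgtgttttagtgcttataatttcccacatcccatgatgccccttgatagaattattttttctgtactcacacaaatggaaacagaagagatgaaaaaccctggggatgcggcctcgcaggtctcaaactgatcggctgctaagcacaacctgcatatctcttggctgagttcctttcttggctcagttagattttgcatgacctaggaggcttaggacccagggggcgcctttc
IRS2, chr13:109786584-109786833, minus strand: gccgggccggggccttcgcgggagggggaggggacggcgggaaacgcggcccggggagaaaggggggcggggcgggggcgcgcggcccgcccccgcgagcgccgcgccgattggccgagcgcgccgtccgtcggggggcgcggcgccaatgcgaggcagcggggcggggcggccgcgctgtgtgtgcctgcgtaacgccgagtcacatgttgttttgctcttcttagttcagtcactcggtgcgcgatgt

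All 10 genes had such a window, and only that 1 was searched for each gene. FOXO3 and PIK3R1 had 4 RefSeq windows each, PIK3R3 had 6 and PIK3IP1 had 2, so other starts of these genes were not covered. The shares over all windows count every window. The 6-base motif was found in 1 of the 10 windows, and it was found in 12.4% of all 35116 RefSeq windows of this length. The full palindrome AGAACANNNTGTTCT, searched on both strands, was in none of the 10 windows and in 0.00285% of all windows. The forkhead motif GTAAACA, whose reverse complement is TGTTTAC, was in none of the 10 and in 2.98% of all. The 6-base motif lies inside the full palindrome, so the first 2 searches overlap. A match is a description of letters, and no match says only that these letters are not in this window. The windows of the 10 genes ranged in GC content from 46.8% at PIK3IP1 to 81.6% at PIK3R1, beside a median of 58.0% over all windows, and the FOXO1 window had 67.2%.

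Per exon length, the receptor IGF1R had the highest level of the 10 genes in labelled RNA and IRS2 the lowest. At 0 h the median of 6 libraries was 20.4 RPKM for IGF1R (lowest 18.9, highest 21.9), 14.8 RPKM for IRS1, 11.3 RPKM for FOXO3, 8.77 RPKM for PIK3IP1 and 7.49 RPKM for PIK3R3. Lower down came PIK3R1 at 4.64 RPKM, FOXO1 at 2.14 RPKM, INSR at 1.94 RPKM and FOXO4 at 1.19 RPKM. Neighbours in this order overlapped from IRS1 down to PIK3R3 and between FOXO1 and INSR, and did not overlap between IGF1R and IRS1, PIK3R3 and PIK3R1, PIK3R1 and FOXO1, or INSR and FOXO4. Every IGF1R library thus lay above every INSR library. By 3 h the median of FOXO1 was 9.85 RPKM (lowest 7.06, highest 14.9), above every FOXO1 library at 0 h.

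**Figure D1:**
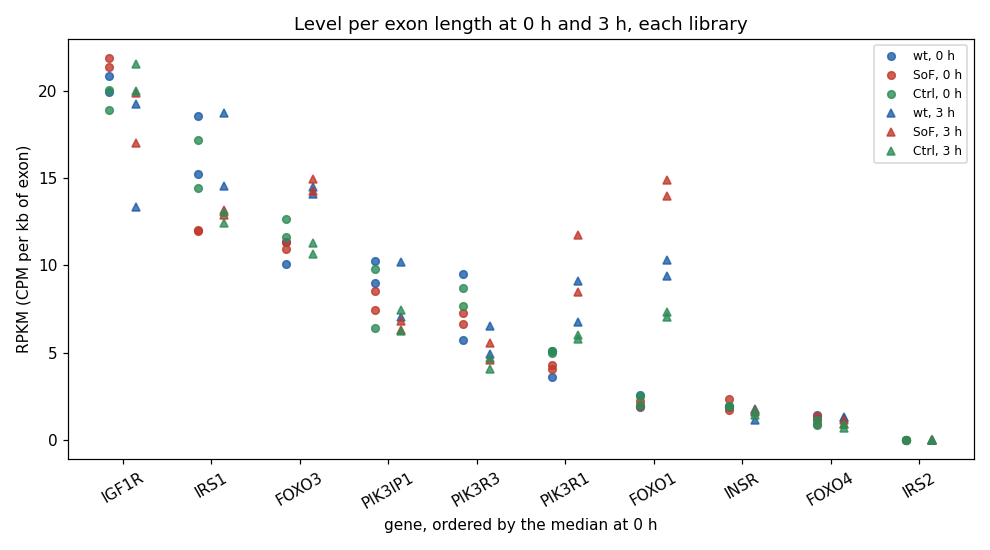
Level of each of the 10 genes in RPKM (vertical axis, CPM per kb of exon) for every library at 0 h (circles) and 3 h (triangles), coloured by line and ordered by the 0 h median. FOXO1 moves from about the level of INSR at 0 h to 7.06 to 14.9 RPKM at 3 h, and IRS2 stays at the baseline.

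IRS2, 1 of the main substrates of both receptors in many tissues (ENSG00000185950.9, chromosome 13, 109752695 to 109786583, minus strand), had 6 reads over all 24 libraries. It was at 0 in 18 libraries and at 1 read in the other 6. A count of 0 allows up to 3 reads, which is 0.202 to 0.353 CPM depending on the library and covers counting error only. IRS2 did not pass the filter on low counts and was not tested, so 9 of the 10 genes entered every test. Its neighbours on chromosome 13, COL4A1 and COL4A2, had 70.2 to 262 CPM and 157 to 404 CPM, so both were read in every library.

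The question asked of each line was which genes changed against 0 h of the same line. Called means an adjusted p under 0.05 by the quasi-likelihood test of edgeR, with p-values adjusted by Benjamini-Hochberg over 23651 genes. At 3 h, 3 of the 9 tested genes were called in wt GR cells (FOXO1, FOXO3 and PIK3R1, all higher), where 10.7% of all genes were called. The same 3 genes were called in SoF GR cells, beside 19.3% of all genes. In Ctrl GR cells 2 genes were called, FOXO1 higher and PIK3R3 lower, beside 14.2% of all genes. As the mean of the 3 lines, 6 libraries against 6, 5 of 9 were called at 3 h (FOXO1, PIK3R1 and FOXO3 higher, PIK3R3 and INSR lower), where 40.3% of all genes were called. The median log2 fold change of the 9 genes was -0.15 there, and over all genes tested it was -0.035.

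At 2 h fewer genes were called than at 3 h in wt GR cells (1 against 3) and SoF GR cells (2 against 3), and as many in Ctrl GR cells (2 at both times). At 2 h the calls were FOXO1 in wt GR cells (background 4.60% of all genes), FOXO1 and PIK3R1 in SoF GR cells (background 5.68%), and FOXO1 higher with PIK3R3 lower in Ctrl GR cells (background 7.95%). Over the 3 lines the same 5 genes as at 3 h passed at 2 h, in the same directions, beside 28.8% of all genes. At 1 h edgeR called 0 of 9 in every line and over the 3 lines, where the background was 0.156% in wt, 0.165% in SoF, 0.0465% in Ctrl and 1.28% over the lines. The number of the 9 genes at an unadjusted p under 0.05 in edgeR was then 1 in wt, 1 in SoF, 0 in Ctrl and 2 over the lines. Of all 23651 genes, 2602 in wt, 1645 in SoF, 423 in Ctrl and 3332 over the lines had such a p. DESeq2 called 1 of the 9 in wt, 0 in SoF, 0 in Ctrl and 1 over the lines. The comparisons with 0 h share the 0 h libraries within a line, so their calls are not independent of each other.

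**Figure D2:**
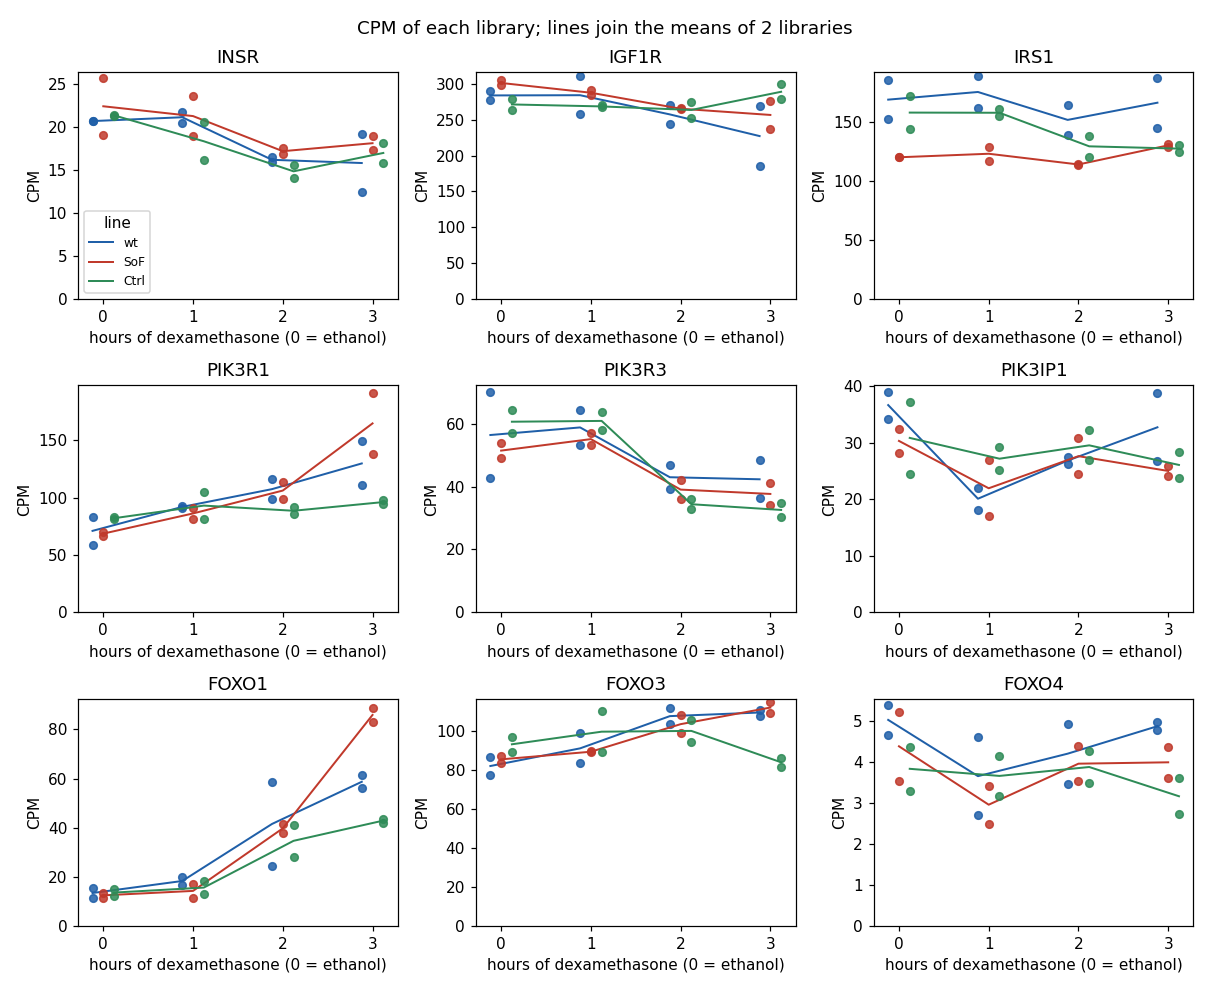
CPM (vertical axis, from 0) of the 9 tested genes against hours of dexamethasone (0 is ethanol). Each point is a library, colours are the lines, and the lines join the means of 2 libraries. FOXO1 climbs from 11.4 to 15.4 CPM at 0 h to 42.1 to 88.6 CPM at 3 h, and the IRS1 points of SoF GR cells lie below those of wt GR cells.

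FOXO1 encodes a transcription factor that turns on genes of fasting metabolism and is held out of the nucleus by insulin signalling (ENSG00000150907.10, chromosome 13, 40555667 to 40666641, minus strand). In wt GR cells its 2 libraries had 11.4 and 15.4 CPM at 0 h, 16.7 and 19.9 CPM at 1 h, 24.4 and 58.6 CPM at 2 h, and 61.3 and 56.0 CPM at 3 h. The 2 and 3 h libraries all lay above the 0 h ones, and the 2 libraries at 2 h were far apart. In SoF GR cells the values were 13.3 and 11.5 CPM at 0 h, 17.1 and 11.4 CPM at 1 h, 38 and 41.4 CPM at 2 h, and 88.6 and 83.2 CPM at 3 h. In Ctrl GR cells they were 15 and 12.1 CPM, 18.4 and 12.8 CPM, 41.2 and 28.1 CPM, and 42.1 and 43.7 CPM at the 4 times in turn. At 3 h no library of any line overlapped with the 0 h libraries, and the 3 lines did not overlap with each other, with SoF highest and Ctrl lowest.

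The log2 fold change of FOXO1 at 3 h was 2.13 (SE 0.29) in wt, 2.78 (SE 0.29) in SoF and 1.65 (SE 0.29) in Ctrl GR cells, which is 4.39-fold, 6.88-fold and 3.14-fold. The quasi-likelihood test of edgeR (Benjamini-Hochberg) gave an adjusted p of 4.61e-05, 1.3e-06 and 0.000609 in turn. At 2 h FOXO1 had a log2 fold change of 1.63 in wt GR cells, 1.67 in SoF and 1.33 in Ctrl GR cells. The 2 h call in wt GR cells was lost without replicate 2 at 2 h (log2 fold change 0.85), and the 2 h call in Ctrl GR cells was lost without replicate 2 at 0 h (1.19) or replicate 1 at 2 h (1.05). For the mean of the lines the FOXO1 calls at 2 and 3 h held in every leave-one-library fit. A long noncoding RNA gene, ENSG00000288542, shares 1352 exon bases with FOXO1 on the same strand, and its level was 2.71 to 3.69 CPM at 0 h and 10.2 to 24.2 CPM at 3 h. Reads from the shared bases cannot be told apart, so the FOXO1 values carry that uncertainty.

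FOXO3 encodes a related factor with many of the same targets (ENSG00000118689.15, chromosome 6, 108559835 to 108684774, plus strand), and its changes were much smaller. In wt GR cells it had 77.5 and 86.9 CPM at 0 h and 108 and 111 CPM at 3 h. SoF GR cells had 84.0 and 87.2 CPM at 0 h and 110 and 115 CPM at 3 h, and Ctrl GR cells had 97.3 and 89.4 CPM at 0 h and 81.6 and 86.5 CPM at 3 h. The 0 h and 3 h libraries did not overlap in any line, with 3 h above in wt and SoF and below in Ctrl GR cells. The log2 fold change at 3 h was 0.42 (SE 0.13, adjusted p = 0.0452) in wt and 0.39 (SE 0.13, adjusted p = 0.0414) in SoF GR cells by edgeR's quasi-likelihood test (Benjamini-Hochberg), and both calls were lost when any 1 of the 4 libraries compared was left out, with DESeq2 size factors (0.41 and 0.37) and with no filter on low counts (0.41 in each line), but not in DESeq2 itself. The wt call was also lost when the fit held only the libraries of the lines compared (0.41). In Ctrl GR cells it was -0.15 (SE 0.13, not called). Over the 3 lines it was 0.22 (SE 0.08, adjusted p = 0.0264 in edgeR, Benjamini-Hochberg), and 5 of the 12 leave-one-library fits lost that call, those without wt replicate 1 at 0 h, wt replicate 2 at 3 h, SoF replicate 2 at 3 h, Ctrl replicate 2 at 0 h or Ctrl replicate 2 at 3 h (0.19 to 0.22). It was also lost with no filter on low counts (0.22). The 2 h call over the lines (0.26, SE 0.08) was lost on leaving out wt replicate 1 at 0 h (0.21) or at 2 h (0.22), or Ctrl replicate 2 at 0 h (0.23) or at 2 h (0.22), and with no filter on low counts (0.24). FOXO3B, a near-identical copy of FOXO3, had 39.2 to 61.5 CPM, so reads may be split between the copies.

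FOXO4, another FOXO gene (ENSG00000184481.17, chromosome X, 71095851 to 71103532, plus strand), was low, at 2.48 to 5.39 CPM over all 24 libraries. It was not called at any time in any line. Its log2 fold change at 3 h over the 3 lines was -0.15 (95% confidence interval -0.51 to 0.20). FOXO1B, a copy of FOXO1, was at 0 or 1 read in every library.

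PIK3R1 encodes the main regulatory subunit of PI3K, which holds the catalytic subunit and brings it to phosphorylated IRS proteins (ENSG00000145675.15, chromosome 5, 68215740 to 68301821, plus strand). In wt GR cells its libraries had 59.0 and 83.2 CPM at 0 h, 91.0 and 93.0 CPM at 1 h, 98.6 and 116 CPM at 2 h, and 149 and 111 CPM at 3 h. In SoF GR cells it had 66.9 and 70.5 CPM at 0 h, 91.2 and 81.3 CPM at 1 h, 114 and 98.6 CPM at 2 h, and 191 and 138 CPM at 3 h. In Ctrl GR cells it had 81.1 and 83.1 CPM at 0 h, 105 and 81.1 CPM at 1 h, 91.6 and 85.6 CPM at 2 h, and 98.1 and 94.3 CPM at 3 h. In all 3 lines the 3 h libraries lay above the 0 h libraries of the line, by a wide margin in SoF and a narrow one in Ctrl GR cells.

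At 3 h the log2 fold change of PIK3R1 was 0.87 (SE 0.18, 1.83-fold) in wt, 1.26 (SE 0.18, 2.40-fold) in SoF and 0.23 (SE 0.18, 1.17-fold) in Ctrl GR cells, with an adjusted p of 0.00288, 4.86e-05 and 0.437 in turn (edgeR's quasi-likelihood test, Benjamini-Hochberg). The wt call was lost without replicate 1 at 0 h (0.63) or replicate 1 at 3 h (0.65). At 2 h the SoF call (0.63, SE 0.18) was lost without any 1 of its 4 libraries and with DESeq2 size factors (0.60). In wt GR cells the 2 h change (0.60, SE 0.18) was not called in edgeR and was called in DESeq2 (0.58), with no filter on low counts (0.56) and with the replicate number as a block, over all lines (0.59) or within each line (0.60). Over the 3 lines PIK3R1 rose by 0.79 (SE 0.10) at 3 h, and no leave-one-library fit lost that call.

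PIK3R3 encodes another regulatory subunit of PI3K and moved the other way (ENSG00000117461.15, chromosome 1, 46040140 to 46133036, minus strand). Its libraries in Ctrl GR cells had 56.9 and 64.3 CPM at 0 h, 57.9 and 63.8 CPM at 1 h, 32.7 and 36.0 CPM at 2 h, and 34.9 and 30.3 CPM at 3 h. SoF GR cells went from 49.0 and 53.8 CPM at 0 h to 41.2 and 34.1 CPM at 3 h, and wt GR cells from 42.6 and 70.2 CPM to 48.3 and 36.3 CPM. The 0 h and 3 h libraries did not overlap in Ctrl and SoF GR cells and overlapped in wt GR cells, whose 2 libraries at 0 h were far apart. The log2 fold change at 3 h was -0.89 (SE 0.20) in Ctrl GR cells (adjusted p = 0.00375, edgeR's quasi-likelihood test, Benjamini-Hochberg). It was -0.41 (SE 0.19) in wt and -0.45 (SE 0.19) in SoF GR cells, and neither was called. The Ctrl call was lost without replicate 2 at 0 h (-0.81) or replicate 2 at 3 h (-0.79). With wt replicate 1 of the 0 h group left out, the change in wt GR cells was called (-0.74), and with wt replicate 2 of that group left out it was 0.008. The 2 h call in Ctrl GR cells (-0.81, SE 0.20) was lost without replicate 2 at 0 h (-0.74), replicate 1 at 2 h (-0.74) or replicate 2 at 2 h (-0.90). With wt replicate 1 at 0 h left out, PIK3R3 was also called at 2 h in wt GR cells (-0.74), where the value was 0.011 with wt replicate 2 at 0 h left out. Over the 3 lines PIK3R3 fell to 0.667 of its 0 h level at 3 h (log2 fold change -0.58, SE 0.11). The readthrough gene P3R3URF-PIK3R3 shares 1292 exon bases with PIK3R3 on the same strand, and it had 13.6 to 22.8 CPM at 0 h and 8.10 to 13.9 CPM at 3 h.

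PIK3IP1, which encodes the membrane-bound restrainer of PI3K (ENSG00000100100.13, chromosome 22, 31281594 to 31292534, minus strand), was not called in the edgeR fit used here, and several alternatives called it at 1 h. Its median over 6 libraries was 33.4 CPM at 0 h and 23.6 CPM at 1 h. In wt GR cells it had 34.3 and 39.1 CPM at 0 h, 22.1 and 18.1 CPM at 1 h, 27.6 and 26.2 CPM at 2 h, and 26.8 and 38.8 CPM at 3 h, so the 1 h libraries lay below those of the other times. SoF GR cells had 32.4 and 28.3 CPM at 0 h and 27.0 and 17.0 CPM at 1 h, and Ctrl GR cells had 37.3 and 24.5 CPM at 0 h and 25.2 and 29.2 CPM at 1 h. The 0 h and 1 h libraries overlapped in Ctrl GR cells and did not in SoF GR cells. The log2 fold change at 1 h was -0.87 (SE 0.22, adjusted p = 0.15) in wt GR cells and -0.51 (SE 0.13, adjusted p = 0.0512) over the 3 lines (edgeR's quasi-likelihood test, Benjamini-Hochberg). DESeq2 called both, with log2 fold changes of -0.87 and -0.52, and so did edgeR with no filter on low counts (-0.89 and -0.55). In edgeR the change over the lines was also called with DESeq2 size factors (-0.52), with the replicate number as a block over all lines (-0.51) or within each line (-0.52), and without SoF replicate 2 at 0 h (-0.55), SoF replicate 1 at 1 h (-0.64) or Ctrl replicate 2 at 0 h (-0.61). PIK3IP1-DT, which shares 36 exon bases with it on the opposite strand, had 0.520 to 1.95 CPM.

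**Figure D3:**
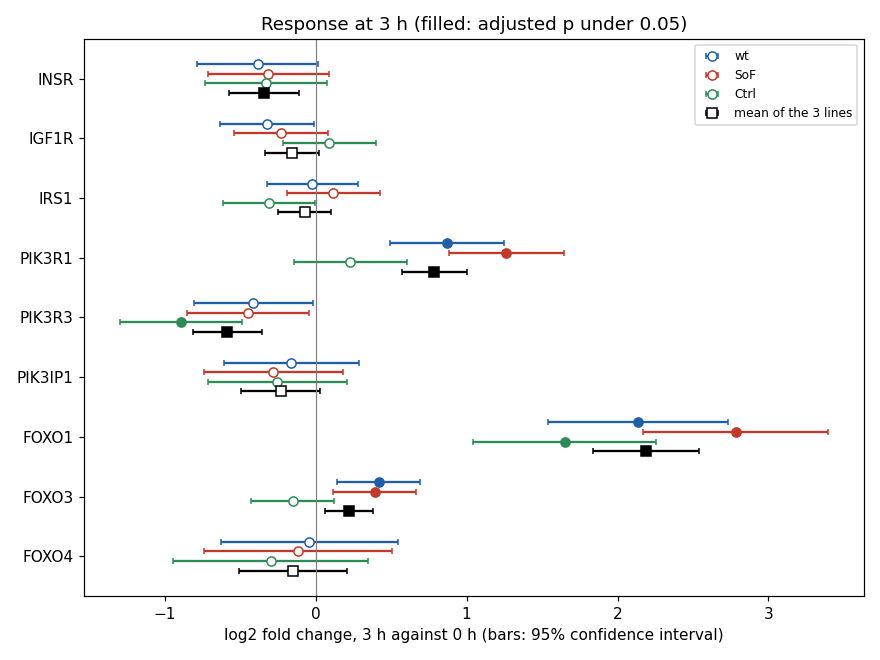
Log2 fold change at 3 h against 0 h (horizontal axis) of the 9 tested genes, with 95% confidence intervals as bars. Circles are the 3 lines, squares the mean of the lines, and filled symbols are adjusted p under 0.05. FOXO1 lies at 1.65 to 2.78 in the single lines, PIK3R1 at 0.23 to 1.26, and PIK3R3 at -0.89 to -0.41.

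INSR encodes the insulin receptor (ENSG00000171105.14, chromosome 19, 7112255 to 7294414, minus strand). Over the 3 lines its lowest, median and highest library had 19.1, 21 and 25.7 CPM at 0 h, 16.1, 20.5 and 23.5 CPM at 1 h, 14.0, 16.2 and 17.5 CPM at 2 h, and 12.4, 17.7 and 19.1 CPM at 3 h. The 0 h and 2 h libraries did not overlap, while the 0 h and 3 h libraries overlapped at 19.1 CPM. INSR fell by 0.42 on the log2 scale (SE 0.11) at 2 h and by 0.34 (SE 0.11) at 3 h, where the adjusted p was 0.0072 and 0.0177 (edgeR's quasi-likelihood test, Benjamini-Hochberg). No single line was called, and the single-line log2 fold changes at 3 h were -0.38 in wt, -0.31 in SoF and -0.33 in Ctrl GR cells. The 3 h call over the lines was lost without wt replicate 1 at 3 h (-0.24), SoF replicate 1 at 0 h (-0.26) or at 3 h (-0.32), or Ctrl replicate 2 at 3 h (-0.30).

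IGF1R encodes the receptor for insulin-like growth factor 1 (ENSG00000140443.15, chromosome 15, 98648539 to 98964530, plus strand). Over the 3 lines its lowest, median and highest library had 263, 285 and 305 CPM at 0 h and 186, 273 and 300 CPM at 3 h, so the times overlapped. Its log2 fold change at 3 h was -0.32 in wt (95% confidence interval -0.63 to -0.01), -0.23 in SoF (-0.54 to 0.08) and 0.09 in Ctrl GR cells (-0.22 to 0.40), and none was called. The lowest value, 186 CPM, was wt replicate 1 at 3 h. When replicate 2 of that group was left out, which leaves that library alone in its group, IGF1R was called lower in wt GR cells (-0.60) and over the 3 lines (-0.24). Without that library itself the values were -0.07 in wt GR cells and -0.07 over the 3 lines, and neither was called.

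IRS1 encodes the docking protein through which both receptors reach PI3K (ENSG00000169047.6, chromosome 2, 226731312 to 226799820, minus strand). Its log2 fold change at 3 h over the 3 lines was -0.07 (95% confidence interval -0.25 to 0.10), and it was not called at any time in any line. Between the lines it did differ. With all times together, the lowest, median and highest of 8 libraries were 139, 163 and 189 CPM in wt, 113, 120 and 132 CPM in SoF, and 121, 141 and 172 CPM in Ctrl GR cells. No SoF library reached the lowest wt library, and Ctrl overlapped with both.

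The lines were also compared with time ignored, as the study's methods describe for each mutant against wt, and SoF was compared with Ctrl GR cells in the same fit. IRS1 was the gene called, lower in SoF than in wt GR cells by 0.44 on the log2 scale (SE 0.08, 0.739 of the wt level, adjusted p = 0.00203, edgeR's quasi-likelihood test, Benjamini-Hochberg over 21122 genes). Of all genes, 8.02% were called between SoF and wt GR cells. Between Ctrl and wt GR cells 4.77% of all genes and 0 of the 9 genes were called, and between SoF and Ctrl GR cells 3.61% of all genes and 0 of the 9. In both, 1 of the 9 genes (IRS1) had an unadjusted p under 0.05 in edgeR, with log2 differences of -0.21 and -0.23. Of all 21122 genes, 3988 and 3019 in turn had such a p. DESeq2 called 0 of the 9. With time added to the fit, IRS1 was called in both comparisons. The fit with time also called many more of all genes between SoF and wt GR cells, as the last paragraph gives. At 0 h alone the difference between SoF and wt was -0.48 and was not called. Leaving out any 1 library kept the SoF call. Labelled NR3C1 RNA was also higher in SoF than in wt GR cells (log2 difference 1.89, SE 0.41) and in Ctrl than in wt GR cells (2.18, SE 0.42). This is RNA, and the pools had been picked for similar nuclear GR protein. The part of NR3C1 in the IRS1 difference was not tested.

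The question of the study was next put to the 9 genes by testing whether the 3 h response itself differed between lines. EdgeR called 0 of 9 genes between SoF and Ctrl (background 0.0127%, which is 3 genes of 23651), 0 between SoF and wt (background 0%) and 0 between Ctrl and wt GR cells (background 0%). The number of the 9 genes at an unadjusted p under 0.05 was 3 (FOXO1, FOXO3 and PIK3R1), 0 and 2 (FOXO3 and PIK3R1) in turn. Over all genes, 671, 558 and 845 of 23651 had such a p. DESeq2 called 0 of the 9 in each. The log2 fold change in SoF minus that in Ctrl GR cells was 1.13 for FOXO1 (SE 0.41, 95% confidence interval 0.29 to 1.98) and 1.03 for PIK3R1 (SE 0.26, interval 0.50 to 1.57). For FOXO3 the difference between SoF and Ctrl was 0.54 (SE 0.19, interval 0.15 to 0.93), and between Ctrl and wt it was -0.57 (SE 0.19, interval -0.96 to -0.18). EdgeR's quasi-likelihood test (Benjamini-Hochberg) gave an adjusted p of 0.598 for PIK3R1 between SoF and Ctrl, and 0.982 or higher for the other differences given here. With no filter on low counts the PIK3R1 difference between SoF and Ctrl was called (1.05, adjusted p = 0.0192 in edgeR).

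**Figure D4:**
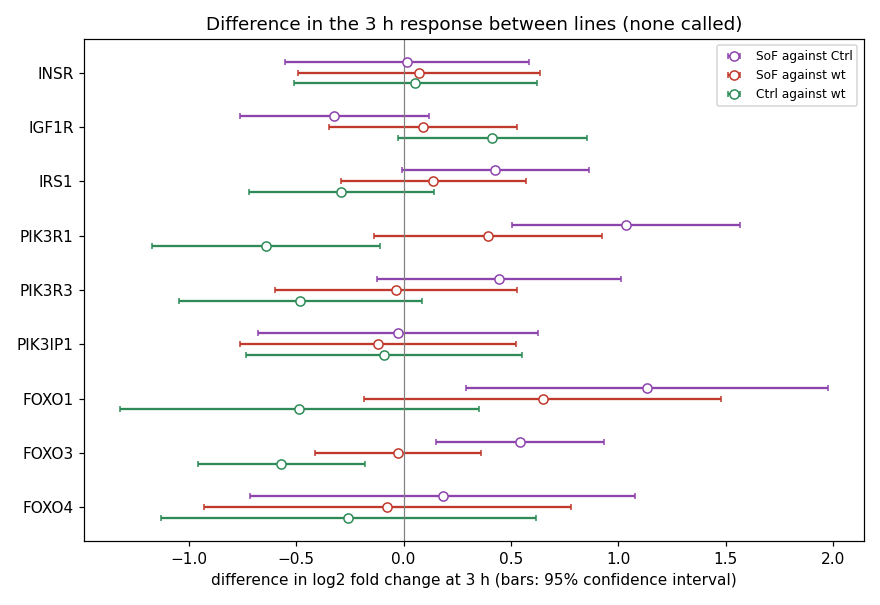
Difference between lines in the log2 fold change at 3 h (horizontal axis) for the 9 tested genes, with 95% confidence intervals as bars. The intervals of FOXO1, FOXO3 and PIK3R1 between SoF and Ctrl GR cells lie above 0, and none of the differences was called after adjustment over all genes.

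The wider pathway was described through 5 lists of its other genes at 3 h over the 3 lines, where 40.3% of all genes were called. These lists were also chosen with earlier results of these data known, so their counts are a description. Among the adaptors and brakes at the receptor, 16 of 22 tested genes were higher and 3 lower, with a median log2 fold change of 0.59 beside -0.035 over all genes. The largest rises were in DOK5 (1.61, SE 0.15), a docking protein, and SH2B3 (1.53, SE 0.13), an adaptor that restrains cytokine receptor signalling. The lower genes with the largest change were the adaptors GRB7 (-1.21, SE 0.44) and GAB1 (-0.57, SE 0.10). In the single lines at 3 h, 8 of these 22 genes were higher and 0 lower in wt (10.7% of all genes called), 9 higher and 1 lower in SoF (19.3%), and 6 higher and 1 lower in Ctrl GR cells (14.2%).

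Genes of the FOXO family and known FOXO targets were called in both directions. Of 24 tested, 6 were higher and 10 lower, with a median of -0.18. PDK4 (2.56, SE 0.24), the kinase that shuts off pyruvate dehydrogenase in fasting, and TXNIP (1.21, SE 0.17), which restrains glucose uptake, rose most. GADD45A (-0.76, SE 0.09), a growth arrest gene, and PPARGC1A (-0.74, SE 0.18), a coactivator of mitochondrial genes, fell most. PDK4 and TXNIP were also 2 of the 3 genes of the whole table whose 3 h response was called larger in SoF than in Ctrl GR cells, by 4.04 (SE 0.65) and 2.82 (SE 0.42) on the log2 scale, which was looked up after their values were seen.

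Of 15 tested PI3K subunits and lipid phosphatases, 5 were higher and 6 lower, with a median of -0.09. The catalytic subunit PIK3CD (0.88, SE 0.14) and the regulatory subunit PIK3R2 (0.57, SE 0.12) rose most, and the lipid phosphatases INPP4B (-0.78, SE 0.14) and INPP5D (-0.67, SE 0.18) fell most. Of 29 tested genes around AKT, 10 were higher and 5 lower, with a median of 0.08. SLC2A4, the insulin-responsive glucose transporter (1.42, SE 0.16), and TRIB2, a pseudokinase (0.83, SE 0.09), rose most, while DEPTOR, an inhibitor of the kinase mTOR (-1.17, SE 0.33), and SLC2A1, the basal glucose transporter (-1.0, SE 0.10), fell most. Of 12 ligands, receptors and binding proteins only 5 could be tested, and the called ones were IGF2 (0.63, SE 0.14) and IGFBP5 (-0.62, SE 0.17).

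**Figure D5:**
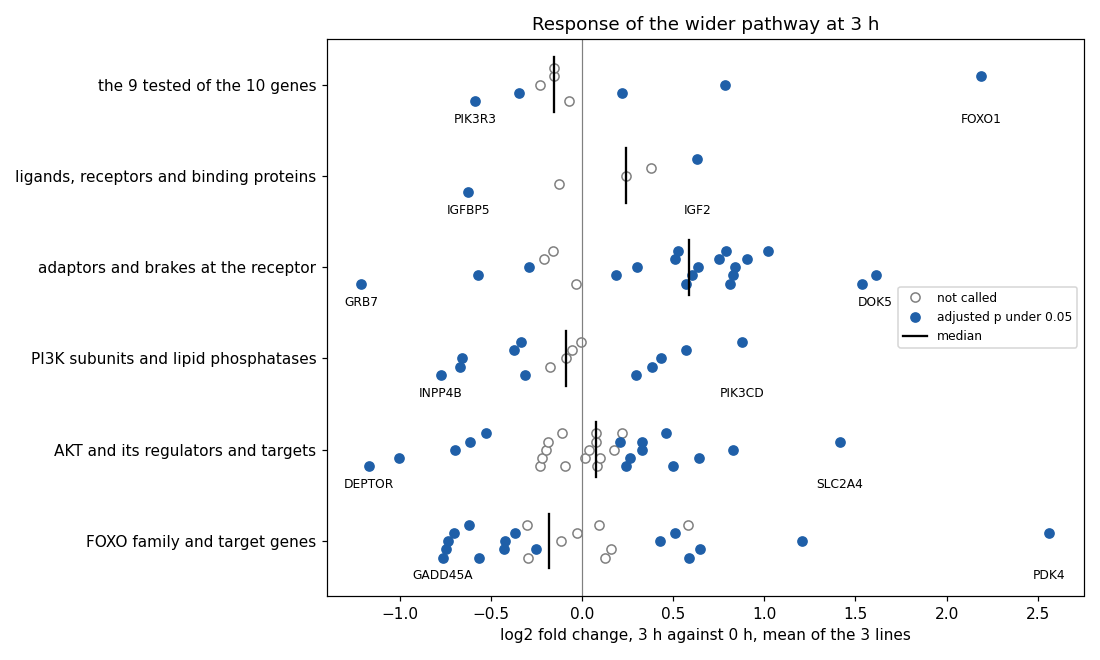
Log2 fold change at 3 h against 0 h as the mean of the 3 lines (horizontal axis) for each tested gene of the 10 genes and of 5 lists of the wider pathway. Filled points are adjusted p under 0.05, vertical bars are medians, and the lowest and highest gene of each list is named. The median of the adaptors and brakes is 0.59, and the other medians lie between -0.18 and 0.24.

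The genes whose pattern over the 12 group means was most like that of the called genes were listed as a description. Pearson's r was taken across 12 group means for 13792 genes, and the means share their libraries and the common time course. For FOXO1 these were the overlapping ENSG00000288542 (r = 0.992), PLIN3 (0.985) and KCNIP3 (0.984), and for PIK3R1 they were ABLIM3 (0.937), SLC7A2 (0.932) and JPH2 (0.929). PIK3R3 was most like the overlapping P3R3URF-PIK3R3 (0.985), BMF (0.976) and IKZF2 (0.970). FOXO3 was most like PDIK1L (0.894), CFLAR (0.894) and SAP30 (0.869), and INSR most like MIR137HG (0.961), ZNF548 (0.937) and TPM1 (0.928).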

How the data were processed

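4sU-seq libraries of 3 U2OS lines at 4 times were used, 24 in all, grouped by the line and time in the labels. The deposited table holds whole-number read counts over exons per gene. The authors extracted unique molecular identifiers with UMI-tools 1.1.2, trimmed with Trim Galore 0.6.6, aligned to hg38 with STAR 2.7.3a, removed duplicates and counted with featureCounts on GENCODE release 39. Only the table's title says that reads were counted by strand. Symbols and positions (hg38, 1-based) came from GENCODE release 44 and matched 61369 of 61533 genes (99.7%). The 10 genes and the pathway lists were chosen with earlier results of these data known.

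Tests used R 4.3.3, edgeR 4.0.16 and limma 3.58.1 with TMM factors, filterByExpr (minimum count 10, minimum total 15), the quasi-likelihood test and Benjamini-Hochberg adjustment (adjusted p under 0.05). A fit over 12 groups kept 23651 of 48707 genes with a count, and a fit over the 3 lines kept 21122. Standard errors are the absolute log2 fold change over the square root of F, and intervals are 95%. CPM used TMM factors, and log2 CPM a prior count of 2. Alternatives were DESeq2 1.42.0 (the authors' tool), its size factors in edgeR, no low-count filter, a minimum log2 fold change of 1, a replicate block, only the lines compared, a time term or 0 h alone in the fit over lines, and leaving out each library. Libraries of 1 group differed by 6.16 to 22.6 times the counting error (chi-square per degree of freedom), so no pair was a duplicate. All 10 genes were named. Of each list the 2 called genes with the largest change in each direction were named, and for each gene called at 3 h over the lines the 3 most alike with a mean of at least 5 CPM. The edgeR fit was tested on simulated data.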

Additional observations from a re-analysis of the deposited data

Results flagged for a closer look

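For the 9 tested genes, 63 groups were examined, each the 6 libraries of 1 time or the 8 libraries of 1 line. In 3 of them 1 library stood far from the rest. Chance alone flags about 1 group in 20 where all libraries of a group share 1 level. These groups pool lines or times, and each library enters both by time and by line, so that rate is only a rough guide. INSR had 25.7 CPM in SoF replicate 1 at 0 h, where the next of the 6 libraries at 0 h had 21.4 CPM. IRS1 had 188 CPM in wt replicate 1 at 3 h, with 146 CPM in the next of the 6 libraries at 3 h. PIK3IP1 had 38.8 CPM in wt replicate 2 at 3 h, with 28.4 CPM in the next.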

How the results depend on the processing

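Of 2403 log2 fold changes of the 9 genes under alternatives, 2199 kept their direction and their side of the threshold, and 124 stayed without a call and changed sign. Another 59 lost a call, 21 gained one, and none that was called changed sign. The minimum log2 fold change of 1 reused the values of the main fit, so under it calls could be lost and signs could not change. Of the 124, 98 had a log2 fold change under 0.1 in size. Counts of called genes moved as follows. A setting can also call more or fewer of all genes. That number is given at the end only for some comparisons under the minimum fold change and the time term. The counts below therefore do not describe these genes apart from the rest. With a minimum log2 fold change of 1, the count became 1 at 3 h in wt, at 2 h in SoF, at 2 and 3 h in Ctrl, and at 2 and 3 h over the lines, 2 at 3 h in SoF, and 0 for SoF against wt with time ignored. DESeq2 gave 1 at 1 h in wt, 2 at 2 h in wt and 1 at 1 h over the lines, and dropping the low-count filter gave 1, 2 and 1 there, with 1 for the response difference between SoF and Ctrl, 2 at 3 h in wt and in SoF, and 4 at 2 and 3 h over the lines. DESeq2 size factors gave 1 at 2 h in SoF, 2 at 3 h in wt and in SoF, and 1 at 1 h over the lines. Fitting only the lines compared gave 2 at 3 h in wt. Time as a term gave 1 for Ctrl against wt and 1 for SoF against Ctrl, and 0 h libraries alone gave 0 for SoF against wt.

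Leaving out 1 library gave 0 to 2 at 2 h and 1 to 3 at 3 h in wt, 1 at 2 h and 2 at 3 h in SoF (all 4 fits each), 0 to 2 at 2 h and 1 to 2 at 3 h in Ctrl, and 0 to 1 at 1 h, 4 to 5 at 2 h and 3 to 5 at 3 h over the lines. Where that left 1 library in a group, it was assumed to vary like the others. The difference between replicate 2 and replicate 1, taken gene by gene, correlated between groups by -0.221 to 0.568. It correlated over 0.1 in 21 of 66 pairs of groups. The main fits did not take the replicate numbers as pairing, and these values do not show that there was none. Between the 0 h groups the correlation was 0.396 (wt and SoF), 0.394 (wt and Ctrl) and 0.568 (SoF and Ctrl). Other pairs also correlated, such as SoF at 0 h with SoF at 2 h (0.434) and at 1 h (0.369). SoF at 2 h correlated with Ctrl at 0 h by 0.396, and wt at 1 h with wt at 2 h by 0.299. The replicate block gave 2 at 2 h in wt and 1 at 1 h over the lines, as did a block within each line, added after seeing the data, and it moved no other count. Over all genes, the minimum fold change cut the calls over the lines from 6812 to 1211 at 2 h and from 9525 to 2311 at 3 h, and a time term raised SoF against wt from 1693 to 6134. IRS2 did not pass the filter on low counts and stayed untested. The cause of these shifts was not tested.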
